A study of Rattus norvegicus with 12 samples.

Results

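Transcripts of the aldehyde dehydrogenase family were followed in the mammary glands of prepubertal rats whose mothers had been fed a high fat butter diet or a control diet. The genes were chosen by name, as Aldh1b1, which the study lists among its genes of interest, and 9 of its relatives, so that 10 of the 16511 genes of the count table were asked for. Of these, 9 were found in the table, and Aldh7a1 was not analysed here. A further 6 Aldh genes in the table (Aldh1l2, Aldh3a1, Aldh4a1, Aldh8a1, Aldh16a1 and Aldh18a1) are given beside them for comparison.

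The HFB group held 6 mammary glands of female SD rat offspring whose dams received the high fat butter diet, and the CTL group held 6 glands of offspring whose dams received the control AIN diet. Every gland was taken at postnatal day 21 (PND21) and snap frozen, with a different litter behind each library, and the labels of both groups name no other agent. The submitted labels and design text name mammary glands, while the study's methods describe sequencing of microdissected epithelium, and the exposure windows given do not match either, so the labels were followed and neither the tissue fraction nor the window is settled here. Sequencing gave 2320267 to 2944680 counts in a library. A level of 3 counts, the smallest treated as detectable, corresponded to 0.949 CPM (CTL 7) to 1.30 CPM (CTL 9) (counts scaled to library size with TMM factors, as in all levels here). Libraries are named by diet and library number, HFB 1 to 6 and CTL 7 to 11 and 14.

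Aldehyde dehydrogenases oxidize aldehydes to carboxylic acids with NAD or NADP as the electron acceptor. Some of them make retinoic acid from retinaldehyde, others clear acetaldehyde or the aldehydes that arise when membrane lipids are oxidized, and others act on intermediates of amino acid breakdown or carnitine synthesis. In the mammary gland, high aldehyde dehydrogenase activity is widely used to enrich progenitor cells of the epithelium, but at this age most of the gland is a fat pad around a small ductal tree, and a library made from a whole gland holds RNA of all its cell types.

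HFB 6 and CTL 14 stood apart from the other 10 libraries before any diet was compared. The lymph node stroma markers, all 8 of them in the table, summed to 3784 CPM in HFB 6 and 3393 CPM in CTL 14, and to between 100.2 and 367 CPM in the other libraries. Their most abundant gene was Ccl21, a chemokine of lymph node stroma, at 2026 CPM in HFB 6 and 1887 CPM in CTL 14, against 67.9 to 263 CPM elsewhere. The lymphoid markers, 15 of 16 in the table, were led by the T cell kinase gene Lck and summed to 1674 and 1652 CPM in this pair, against 15.6 to 469 CPM. The 7 endothelial markers summed to 969 and 907 CPM in the pair, against at most 382 CPM, and the sum of the epithelial markers was highest there too, at 809 and 837 CPM, against at most 742 CPM, but single genes differed, as Epcam was at 51.3 CPM in HFB 6 and 96.8 CPM in CTL 7. The sums of adipocyte and of fibroblast markers went the other way. The 10 of 12 adipocyte genes in the table, led by Fabp4, summed to 21050 CPM in HFB 6 and 17140 CPM in CTL 14, and to between 36120 and 44760 CPM in the other libraries. The 12 fibroblast and matrix genes, led by Col3a1, summed to 26320 and 24680 CPM, against at least 36000 CPM. Not all genes of a list followed its sum, as Pdgfrb of the fibroblast list, named after its values were seen, was highest in this pair. No gene of the lymph node stroma, lymphoid and adipocyte lists was at 0 in all libraries. The pair holds 1 library of each diet.

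None of the 6 members that passed the filter on low counts differed between the diets at an adjusted p under 0.05 in edgeR's test, and none of the 9382 genes tested did (0%). At an unadjusted p under 0.05 the count was 0 of 6 members against 220 genes (2.34%), and the diet groups overlapped for all 6, where 10 genes (0.107%) had groups that did not overlap. DESeq2 and limma-voom also called 0 genes at the adjusted threshold, with 271 and 613 genes at an unadjusted p under 0.05, none of them a member. Aldh1a1, Aldh1b1 and Aldh3b1 did not pass the filter. The median log2 fold change of the 6 members tested was -0.058, with 2 above 0 and 4 below, and the median over all genes tested was 0.00018. The signs of Aldh3a2, Aldh6a1 and Aldh9a1 were not stable, as with limma-voom (0.0064, 0.051 and 0.0090) and without HFB 5, HFB 6 and CTL 14 (0.054, 0.11 and 0.047) all were above 0, while DESeq2's size factors and upper-quartile scaling kept them below. As the libraries hold markers of many cell types, fewer cells of a type and less RNA per cell cannot be told apart in any value that follows.

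**Figure D1:**
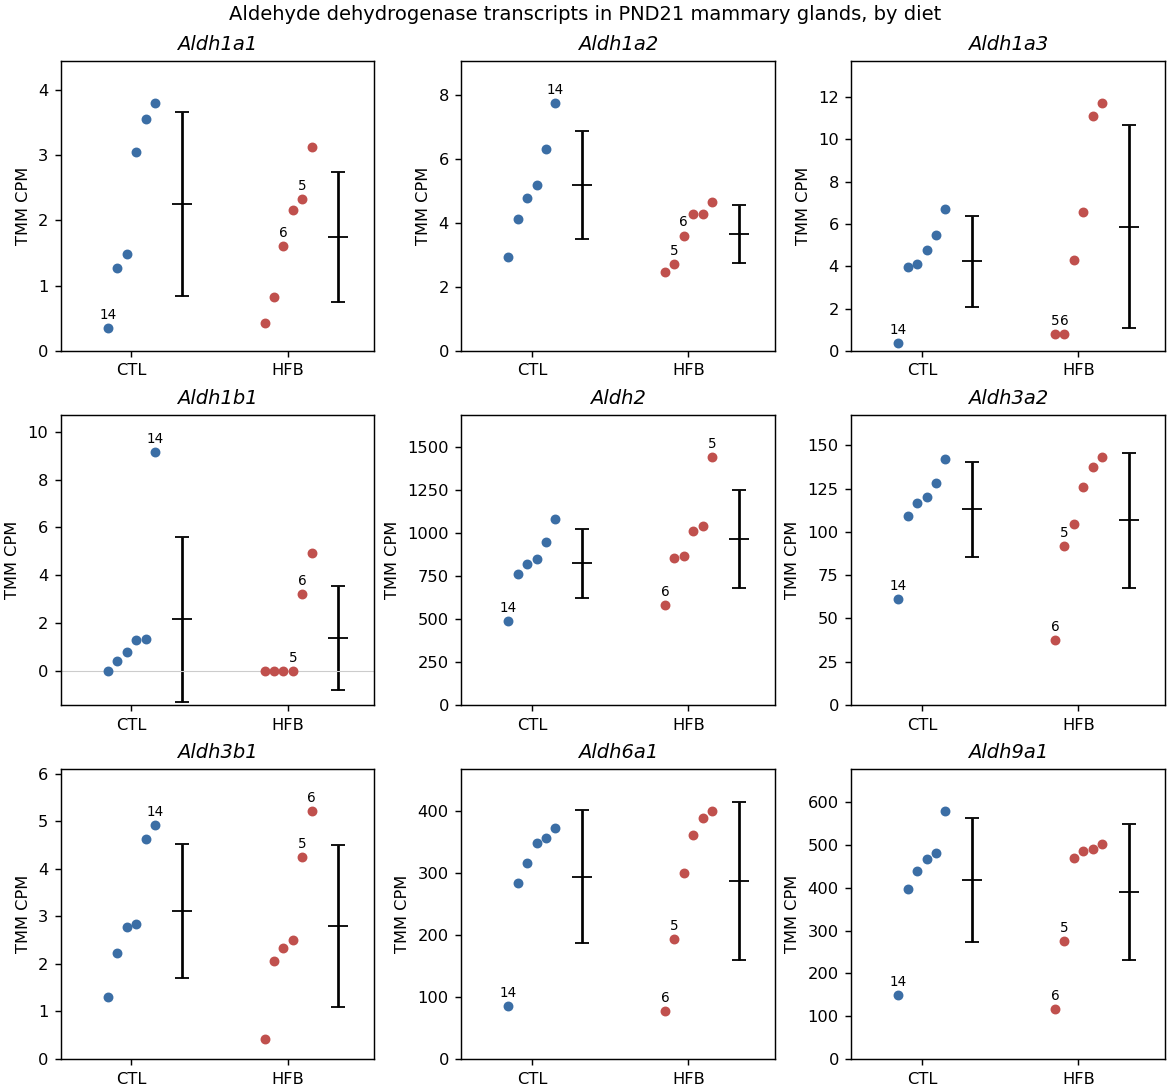
Level of each member (TMM-normalized CPM, linear axes) in the 6 CTL and 6 HFB libraries, 1 point per library, with the mean and SD at the right of each group; libraries HFB 5, HFB 6 and CTL 14 are numbered. The diet groups overlap in all 9 panels, and Aldh2, Aldh3a2, Aldh6a1 and Aldh9a1 are lowest in HFB 6 and CTL 14.

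Aldh1a1, Aldh1a2 and Aldh1a3 encode the retinaldehyde dehydrogenases, which make the hormone-like signal retinoic acid. Aldh1a2 ranged from 2.47 to 4.66 CPM in the HFB libraries, with a median of 3.95, and from 2.95 to 7.75 CPM in the CTL libraries, with a median of 4.99. All 6 HFB libraries were below the CTL median, but CTL 11 and CTL 7 lay within the HFB range, and CTL 14 was the highest library. The log2 fold change of HFB over CTL was -0.49 (standard error, SE, 0.28; adjusted p = 0.999 in edgeR's test). This was the smallest unadjusted p among the members, 0.103, and it was under 0.05 in the fit without CTL 11, where the log2 fold change was -0.61. The value was -0.33 without CTL 14, -0.23 with limma-voom and -0.24 without HFB 5, HFB 6 and CTL 14. Its adjusted p was at least 0.710 over the 19 alternatives and omissions that tested it. Over the 12 libraries Aldh1a2 had an SD of 0.39 on the log2(CPM + 1) scale, and the median over genes tested was 0.40.

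Aldh1a3, the retinaldehyde dehydrogenase often linked to progenitor activity in breast epithelium, had the largest spread of the 6 members tested. Aldh1a3 had 1 to 31 counts per library, and 3 libraries were under 3 counts. The part of counting error in its spread was not tested. Its HFB libraries ran from 0.774 to 11.7 CPM with a median of 5.43, and its CTL libraries from 0.352 to 6.68 CPM with a median of 4.45. HFB 3 and HFB 4, at 11.7 and 11.1 CPM, were above every CTL library, HFB 5 and HFB 6 were under 1 CPM, and CTL 14 was the lowest of all, so the groups overlapped. The log2 fold change was 0.48 (SE 0.65, adjusted p = 0.999 in edgeR's test), and 3 of the 6 HFB libraries were above the CTL median. The SD over the 12 libraries was 1.06 on the log2 scale, larger than that of 94.0% of the genes tested. Single libraries moved the value in both directions, from 0.17 without HFB 3, 0.20 without HFB 4 and 0.24 without CTL 14 to 0.67 without CTL 10 and 0.71 without HFB 5 or without HFB 6. Without HFB 5, HFB 6 and CTL 14, a set chosen after the values were seen, the log2 fold change was 0.76 with an unadjusted p under 0.05 and an adjusted p of 0.876. Over the 19 alternatives and omissions that tested Aldh1a3 its adjusted p was at least 0.865.

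Aldh1a1, the cytosolic enzyme behind much of the aldehyde dehydrogenase activity measured in stem cell assays, had between 1 and 9 counts per library, 61 in all, and 3 libraries were under 3 counts. The HFB libraries lay between 0.428 and 3.12 CPM with a median of 1.88, and the CTL libraries between 0.352 and 3.79 CPM with a median of 2.26. The groups covered nearly the same range, with mean log2(CPM + 1) of 1.37 ± 0.57 (SD, n = 6) for HFB and 1.57 ± 0.72 (SD, n = 6) for CTL (two-sided exact permutation test, p = 0.597). CTL 14 was lowest and CTL 11 highest.

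The rest of the retinoid pathway did not pass the test either. Of 28 listed genes for the transport, storage, oxidation and reception of vitamin A, 24 were in the table and 19 were tested. In edgeR's test 0 had an adjusted or an unadjusted p under 0.05, 10 had a log2 fold change above 0 and 9 below, and their median was 0.0049. The gene of this list with the highest CPM was Rbp4, the retinol carrier of blood that adipocytes also make, at 2133 ± 1047 CPM (SD, n = 6) in HFB and 1799 ± 711 CPM (SD, n = 6) in CTL. Its log2 fold change was 0.25 (SE 0.39), and HFB 6, at 530.4 CPM, was its lowest library. The smallest unadjusted p values were those of Rdh13, a mitochondrial retinol dehydrogenase (log2 fold change -0.55, SE 0.29), and Lrat, which esterifies retinol for storage (log2 fold change -0.58, SE 0.32, and -0.26 without HFB 5, HFB 6 and CTL 14). Lrat was also the 3rd most similar gene to Aldh1a2 over the libraries, with a Pearson r of 0.781, given as a measure of likeness only.

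Aldh2 and Aldh1b1 encode mitochondrial enzymes that oxidize acetaldehyde. Aldh2 was counted deeply, with 1377 to 3723 counts per library. Its level ran from 581 to 1440 CPM in HFB, with a median of 941, and from 485 to 1079 CPM in CTL, with a median of 833. HFB 5 was the highest library and CTL 14 and HFB 6 the lowest, while the other 9 lay between 762 and 1079 CPM, and 5 of 6 HFB libraries were above the CTL median. The log2 fold change was 0.23 (SE 0.23, adjusted p = 0.999 in edgeR's test) and lay between 0.081, without HFB 5, and 0.34, without HFB 6 (0.13 without CTL 14), when single libraries were left out. HFB 5 was the highest library for 9.52% of the genes tested, Aldh4a1 among them. The counts on Aldh2 were 63.9% of all Aldh counts in HFB 5 (95% exact binomial interval 62.6 to 65.1%) and 38.5% to 53.6% in the other 11 libraries, a share of reads that depends on transcript length as well as on level.

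Aldh1b1, which acts on acetaldehyde and retinaldehyde and is known from progenitor cells of the gut and pancreas, was at or near the limit of detection in most libraries. It had 56 counts in all, and 7 of the 12 libraries were under 3 counts. In HFB it lay between 0 and 4.94 CPM with a median of 0, and in CTL between 0 and 9.16 CPM with a median of 1.03. Most of its counts came from CTL 14 with 26, HFB 1 with 12 and HFB 6 with 8, so the high libraries were found in both diets and the groups overlapped. Mean log2(CPM + 1) was 0.77 ± 1.21 (SD, n = 6) in HFB and 1.18 ± 1.15 (SD, n = 6) in CTL (two-sided exact permutation test, p = 0.610), and the sign of this difference depended on CTL 14, without which it was 0.027. No fold change is given at this level.

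Genes that share substrates with these enzymes were also examined. Of 15 listed alcohol dehydrogenases, aldo-keto reductases and other enzymes of aldehyde metabolism, 14 were in the table and 10 were tested, with 5 log2 fold changes above 0, 5 below and a median of 0.052. No gene passed the adjusted threshold in edgeR's test. Against 2.34% of all genes tested, 3 of the 10 had an unadjusted p under 0.05, all with higher levels in HFB. These were Akr7a2, an aldehyde reductase, at 137 ± 30.2 CPM (SD, n = 6) in HFB and 103 ± 13.5 CPM (SD, n = 6) in CTL, Gpx4, the enzyme that reduces lipid hydroperoxides in membranes, and Akr1b1, an aldose reductase named after its values were seen. Their log2 fold changes were 0.42 (SE 0.16), 0.45 (SE 0.17) and 0.31 (SE 0.14). Without HFB 5, HFB 6 and CTL 14 the values of Akr7a2 and Gpx4 were 0.27 and 0.21. The diet groups overlapped for Akr7a2 and Gpx4, whose adjusted p was 0.999. Akr1a1, the gene of the list with the highest CPM, had a log2 fold change of 0.20 (SE 0.13), and Adh6 was at 0 in all libraries.

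Aldh3a2 and Aldh3b1 encode enzymes of medium- and long-chain fatty aldehydes. Aldh3a2, the fatty aldehyde dehydrogenase of the endoplasmic reticulum, ran from 37.7 to 143 CPM in HFB with a median of 115, and from 61.3 to 142 CPM in CTL with a median of 118.5. HFB 6 and CTL 14 were far below the other libraries, which lay between 92.1 and 143 CPM without a gap between the diets. The log2 fold change was -0.081 (SE 0.28, adjusted p = 0.999 in edgeR's test), and its sign was not stable, as it was 0.096 without HFB 6 and 0.0065 without CTL 10. In the order of genes in the RefSeq table Aldh3a2 lies between Slc47a2 and Aldh3a1, a related gene that had 36 counts in all libraries together.

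Aldh3b1 oxidizes lipid-derived aldehydes at membranes and had 1 to 14 counts per library. In HFB it lay between 0.428 and 5.21 CPM with a median of 2.42, and in CTL between 1.30 and 4.93 CPM with a median of 2.81. The highest libraries were HFB 6, CTL 14, CTL 11 and HFB 5, and the lowest was HFB 2, so high values were found in both diets. Mean log2(CPM + 1) was 1.78 ± 0.74 (SD, n = 6) in HFB and 1.97 ± 0.51 (SD, n = 6) in CTL (two-sided exact permutation test, p = 0.617). Without HFB 2 the difference changed sign, to 0.069. The RefSeq gene table also lists the close relatives Aldh3b2 and Aldh3b3, and whether reads were shared with them is uncertain.

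Aldh6a1 and Aldh9a1 serve intermediary metabolism. Aldh6a1 is the methylmalonate semialdehyde dehydrogenase of valine and thymine breakdown, and Aldh9a1 oxidizes trimethylaminobutyraldehyde on the way to carnitine, the carrier of fatty acids into mitochondria. Aldh6a1 ran from 77.8 to 400.1 CPM in HFB with a median of 331, and from 85.6 to 374 CPM in CTL with a median of 333. HFB 6 and CTL 14 were at 77.8 and 85.6 CPM, HFB 5 was next at 194 CPM, and the other 9 libraries lay between 285 and 400.1 CPM with both diets mixed. Its log2 fold change was -0.035 (SE 0.39, adjusted p = 0.999 in edgeR's test). The sign changed in 5 of the 12 fits that left out a library, most of all without HFB 6, where the value was 0.16.

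Aldh9a1 had the same low libraries. It ran from 117 to 502.5 CPM in HFB, with a median of 478, and from 150.4 to 579 CPM in CTL, with a median of 454. The lowest were HFB 6 at 117 CPM, CTL 14 at 150.4 CPM and HFB 5 at 275 CPM, and the other 9 libraries lay between 397 and 579 CPM. The log2 fold change was -0.10 (SE 0.36, adjusted p = 0.999 in edgeR's test), and it was 0.087 without HFB 6 and 0.0115 without CTL 11. A pseudogene, Aldh9a1-ps1, is listed in the RefSeq gene table, and how reads that match both were counted is unknown.

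**Figure D2:**
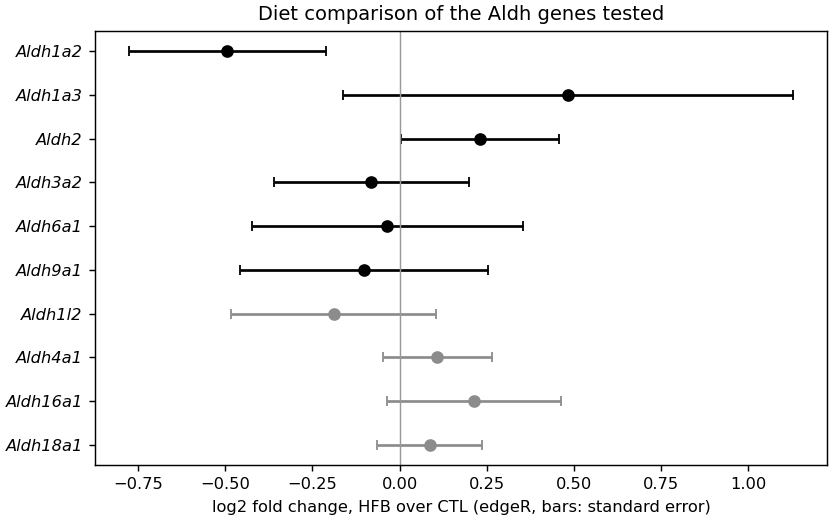
Log2 fold change of HFB over CTL for the 6 members (black) and 4 other Aldh genes (grey) that passed the filter on low counts, with the standard error from edgeR's fit as bars. The values run from -0.49 for Aldh1a2 to 0.48 for Aldh1a3, and each has an adjusted p of 0.999.

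The windows before the gene starts of Aldh6a1 and Aldh9a1 are shown because this pair had the highest Pearson r of all member pairs, and that of Aldh1b1 because its level was highest in CTL 14, where theirs were low. RefSeq (GRCr8 assembly) gives a window for 8 of the 9 members, matched by gene identifier. The 250 bases before the start are printed 5′ to 3′ on the strand of the gene, from chr6:109829726-109829975 on the minus strand for Aldh6a1, chr13:82038429-82038678 on the plus strand for Aldh9a1 and chr5:64858750-64858999 on the plus strand for Aldh1b1. Capitals mark matches to any of 4 motifs on either strand, namely GGGCGG, the site of Sp1, CCAAT, the site of NF-Y, TATAAA, the TATA box, and AGGTCA, a site of nuclear receptors such as those for retinoic acid.
Aldh6a1: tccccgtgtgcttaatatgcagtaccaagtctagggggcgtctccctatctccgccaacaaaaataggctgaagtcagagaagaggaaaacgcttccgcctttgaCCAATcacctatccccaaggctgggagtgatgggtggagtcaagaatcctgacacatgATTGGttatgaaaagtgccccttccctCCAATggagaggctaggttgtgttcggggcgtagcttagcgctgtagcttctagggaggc
Aldh9a1: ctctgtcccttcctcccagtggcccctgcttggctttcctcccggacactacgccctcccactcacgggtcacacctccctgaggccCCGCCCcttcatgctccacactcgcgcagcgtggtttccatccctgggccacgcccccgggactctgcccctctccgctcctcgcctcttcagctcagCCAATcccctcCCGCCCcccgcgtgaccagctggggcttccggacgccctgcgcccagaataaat
Aldh1b1: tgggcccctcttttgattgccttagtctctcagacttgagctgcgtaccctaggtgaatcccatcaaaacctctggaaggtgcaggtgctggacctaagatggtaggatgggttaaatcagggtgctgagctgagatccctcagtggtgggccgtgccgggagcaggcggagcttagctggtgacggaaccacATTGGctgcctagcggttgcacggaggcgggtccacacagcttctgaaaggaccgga
Aldh6a1 held CCAAT at 3 places and no GGGCGG, Aldh9a1 held GGGCGG at 2 places and CCAAT at 1, and Aldh1b1 held CCAAT at 1 place. Over all 33469 windows of the same length, 34.0% held CCAAT, 30.5% GGGCGG, 12.9% TATAAA and 14.1% AGGTCA. Among the 8 members with a window, 7 held CCAAT, 4 GGGCGG, 1 AGGTCA and 0 TATAAA. The GC content was 52.4% for Aldh6a1, 68.4% for Aldh9a1 and 57.6% for Aldh1b1, and the median over all windows was 51.2%. These matches describe the letters of the windows, and binding was not tested.

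The other genes of the pathways of Aldh6a1 and Aldh9a1 were not past the threshold. For the breakdown of branched-chain amino acids and propionate, 26 of 29 listed genes were in the table and 23 were tested, of which 20 had a log2 fold change above 0 and 3 below, with a median of 0.088. The median over all genes tested was 0.00018. In edgeR's test 0 of the 23 had an adjusted p under 0.05. Against 2.34% of all genes tested, 2 of the 23 had an unadjusted p under 0.05. Among them was Bcat2, the mitochondrial aminotransferase that opens the pathway, at 214 ± 76.0 CPM (SD, n = 6) in HFB and 151 ± 13.3 CPM (SD, n = 6) in CTL, with a log2 fold change of 0.50 (SE 0.22) that was 0.20 with limma-voom and 0.205 without HFB 5, HFB 6 and CTL 14. Echs1, the hydratase upstream of Aldh6a1 in valine breakdown and the gene of this list with the highest CPM, had a log2 fold change of 0.18 (SE 0.26).

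For lysine breakdown and the synthesis of carnitine and polyamines, all 19 listed genes were in the table and 15 were tested. No gene of this list had an adjusted or an unadjusted p under 0.05 in edgeR's test, with 8 log2 fold changes above 0, 7 below and a median of 0.036. Tmlhe, the first enzyme of carnitine synthesis, gave a log2 fold change of 0.35 (SE 0.23), and Srm, spermidine synthase, of 0.20 (SE 0.16). Leaving out single libraries lowered both values. Tmlhe was 0.092 without HFB 6, its highest library at 77.8 CPM, and Srm was 0.10 without HFB 5. Aoc3, a copper amine oxidase of adipocytes and vessels and the gene of the list with the highest CPM, ran from 480.3 to 2544 CPM.

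The members differed from each other in how they departed from their usual level in HFB 6, CTL 14 and HFB 5. HFB 6 and CTL 14 were the lowest pair of libraries for 4 of the 6 members tested (Aldh2, Aldh3a2, Aldh6a1 and Aldh9a1), and for 1807 (19.3%) of the genes tested. They were the highest pair for 2093 genes (22.3%), among which was Aldh16a1 but no member. The SD over the 12 libraries was 0.82 for Aldh6a1, 0.74 for Aldh9a1 and 0.56 for Aldh3a2 on the log2 scale, above that of 88.0%, 84.2% and 72.1% of the genes tested. All 15 Aldh genes together took 0.102% of the counts of HFB 6 (95% exact binomial interval 0.0978 to 0.1055%) and 0.113% of CTL 14 (0.109 to 0.117%), and between 0.174% and 0.224% in the other libraries. Such intervals cover counting error only. In HFB 5 the total share was 0.212%, with Aldh2 high there and Aldh6a1, Aldh9a1 and Aldh1a3 low.

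**Figure D3:**
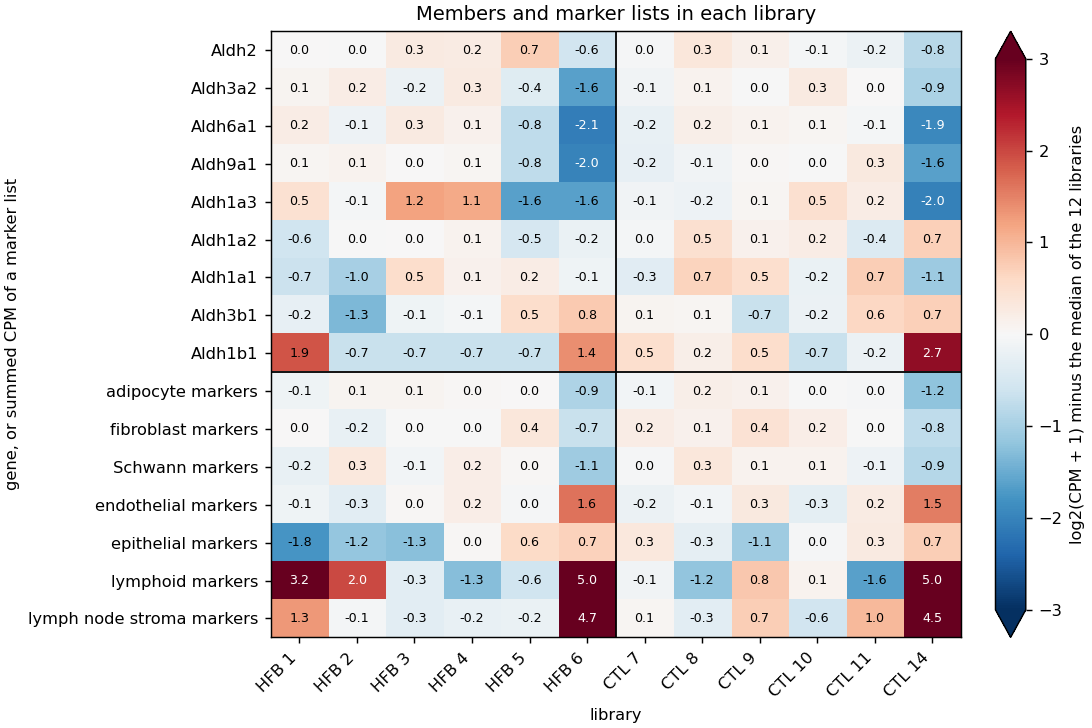
Level of each member and summed level of 7 marker lists in every library, as log2(CPM + 1) minus the median of the 12 libraries (colour limited to 3 on either side, value printed in each cell). HFB 6 and CTL 14 show low Aldh3a2, Aldh6a1, Aldh9a1 and adipocyte values beside high lymphoid and lymph node stroma values.

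Relations over the 12 libraries were computed for 36 pairs of members and for each of the 9 members with 11 marker lists, 135 in all. The adjusted p of Pearson's r was under 0.05 for 17 of them, 6 pairs of members and 11 with a list, and the adjusted p of Spearman's rho for 0. The labels name no sequencing batch, so none could be examined. When the pair of libraries farthest from the median of the list, or of 1 member of the pair, was left out, 6 of the 17 kept a p under 0.05.

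Aldh6a1 and Aldh9a1 followed each other (r = 0.970 and rho = 0.552, permutation p of 0.0005 and 0.0659, 0.0175 and 0.304 when adjusted). Within HFB r was 0.982 and within CTL 0.958, but each diet holds 1 of the libraries that stand apart. Without HFB 6 and CTL 14, r was 0.766 over 10 libraries (permutation p = 0.0448), and without HFB 5 as well it was 0.065 over 9 libraries (exact permutation p = 0.869), so the relation rests on these 3 libraries. Aldh3a2 was close to both, to Aldh6a1 (r = 0.926 and rho = 0.5455, permutation p of 0.00054 and 0.070, 0.0175 and 0.304 when adjusted) and to Aldh9a1 (r = 0.9504 and rho = 0.699, permutation p of 0.00023 and 0.0137, 0.0155 and 0.231 when adjusted). Without HFB 6 and CTL 14, r was 0.566 (permutation p = 0.0872) and 0.678 (permutation p = 0.030), and without HFB 5 as well it was -0.022 (exact permutation p = 0.955) and 0.251 (exact permutation p = 0.532), so both rest on these libraries.

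Aldh1a3 was low in the same libraries, with 1 or 2 counts in each of HFB 5, HFB 6 and CTL 14. Over all 12 it followed Aldh6a1 (r = 0.881 and rho = 0.769, permutation p of 0.00021 and 0.00482, 0.0155 and 0.163 when adjusted) and Aldh9a1 (r = 0.850 and rho = 0.678, permutation p of 0.00132 and 0.0185, 0.0255 and 0.251 when adjusted). Leaving out HFB 6 and CTL 14 gave r of 0.866 (permutation p = 0.00383) and 0.758 (permutation p = 0.0307). Without HFB 5 as well r was 0.593 (exact permutation p = 0.0923) and 0.212 (exact permutation p = 0.572). The relation of Aldh1a3 to Aldh3a2 (r = 0.760 and rho = 0.594, permutation p of 0.0041 and 0.0455, 0.0395 and 0.296 when adjusted) had an r of 0.538 (permutation p = 0.107) without HFB 6 and CTL 14. Without HFB 5 as well r was 0.0097 (exact permutation p = 0.98), so this relation rests on the 3 libraries. Of the 6 pairs of members with an adjusted p of r under 0.05, 0 had an exact permutation p of r or rho under 0.05 over the 9 libraries left without HFB 5, HFB 6 and CTL 14, a set chosen after the values were seen.

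Aldh2 parted from this group in HFB 5. Over all libraries its relation to Aldh9a1 was positive but not past the threshold (r = 0.565 and rho = 0.147, permutation p of 0.0551 and 0.650, 0.122 and 0.844 when adjusted), and without HFB 6 and CTL 14 r was -0.803 (permutation p = 0.0167). The direction of this relation therefore rests on which libraries are included. Aldh1a2 was not seen to follow any of the other members, with r between -0.353 and 0.176.

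Against the marker lists, Aldh2 passed the threshold with the adipocyte, fibroblast, lymphoid, lymph node stroma and Schwann lists, and Aldh3a2 with the lymph node stroma, endothelial and Schwann lists, while Aldh6a1 and Aldh9a1 passed it with none of the 11. Over 12 libraries the r of Aldh2 was 0.815 with the fibroblast list (permutation p = 0.00199, 0.0328 when adjusted), -0.7375 with the lymphoid list (permutation p = 0.00553, 0.0463 when adjusted), 0.768 with the Schwann list (permutation p = 0.00556, 0.0463 when adjusted) and -0.829 with the lymph node stroma list (permutation p = 0.00219, 0.0328 when adjusted). Leaving out HFB 6 and CTL 14 gave 0.388, -0.260, 0.221 and -0.3955 in that order, with a permutation p of at least 0.261. For Aldh3a2 and the endothelial list r was -0.892 (permutation p = 0.00372, 0.0386 when adjusted), and -0.183 (permutation p = 0.611) without the same pair. Aldh2 followed the adipocyte list (r = 0.839 and rho = 0.727, permutation p of 0.00096 and 0.00996, 0.0216 and 0.192 when adjusted), and so did Aldh6a1, just short of the threshold (r = 0.915 and rho = 0.5385, permutation p of 0.00693 and 0.0744, 0.0510 and 0.304 when adjusted). Without HFB 6 and CTL 14, r was 0.387 (permutation p = 0.274) and 0.122 (permutation p = 0.742), so both rest on that pair. Aldh9a1 gave r = 0.886 with the adipocyte list and -0.844 with the lymph node stroma list, and -0.0089 and 0.375 without the pair. Aldh3a2 ran against the lymph node stroma markers (r = -0.872 and rho = -0.5455, permutation p of 0.00583 and 0.0723, 0.0463 and 0.304 when adjusted), and this too rests on the pair, with r of -0.050 without it (permutation p = 0.891). Aldh3a2 also followed the 7 Schwann cell markers (r = 0.914 and rho = 0.741, permutation p of 0.00065 and 0.00833, 0.0175 and 0.192 when adjusted), a list led by S100b, which adipocytes also express, and r was 0.441 (permutation p = 0.200) without the pair. Aldh1a1 was as close to the threshold with the lymphoid list (r = -0.716 and rho = -0.727, permutation p of 0.00894 and 0.00975, 0.0511 and 0.192 when adjusted), and r was -0.764 (permutation p = 0.00923) without the pair and -0.763 (exact permutation p = 0.0160) without HFB 5 as well, at 1 to 9 Aldh1a1 counts per library. The part of the marker genes in the levels of the members was not tested.

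Aldh1b1 had the opposite sign. Its level followed the lymph node stroma markers (r = 0.824 and rho = 0.812, permutation p of 0.00308 and 0.00259, 0.0378 and 0.117 when adjusted), with r = 0.754 (permutation p = 0.0108) without HFB 6 and CTL 14 and 0.744 (exact permutation p = 0.0170) without HFB 5 as well. HFB 1, the other library with more than 10 Aldh1b1 counts, had 367 CPM of these markers and 469 CPM of the lymphoid markers, the highest of the remaining 10 libraries. HFB 1 had 12 Aldh1b1 counts, and the next of these 10 was CTL 7 with 4. At 0 to 26 counts per library, and under 3 counts in 7 of the 12, the single values of Aldh1b1 are imprecise. The relation to the lymphoid list (r = 0.795 and rho = 0.602, permutation p of 0.00344 and 0.0432, 0.0386 and 0.296 when adjusted) was weaker without HFB 6 and CTL 14, where r was 0.569 (permutation p = 0.0882).

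Aldh3b1 was the only member with an adjusted p of r under 0.05 to the epithelial markers. These were 16 of 19 listed genes in the table, led by Krt8, with Cldn3 at 0 in all libraries, and they summed to between 145 CPM in HFB 1 and 837 CPM in CTL 14. Aldh3b1 was high where their sum was high (r = 0.768 and rho = 0.867, permutation p of 0.00274 and 0.00055, 0.037 and 0.0675 when adjusted), within HFB (r = 0.713) and within CTL (r = 0.893). Leaving out HFB 1 and HFB 3, the libraries farthest from the median of the list, gave r = 0.936 over 10 libraries (permutation p = 0.00018). The highest libraries of both measures were HFB 6 and CTL 14, and without HFB 5, HFB 6 and CTL 14 r was 0.603 (exact permutation p = 0.0757) and rho 0.733 (exact permutation p = 0.0311) over 9 libraries. At 1 to 14 counts per library the single values of Aldh3b1 are imprecise. The sum of the list is weighted towards keratin genes, as Krt8, Krt18 and Krt19 were at 222.5, 174.4 and 111 CPM in HFB 6. Not all genes of the list followed it. In HFB 6 Kit was at 0 and Ehf at 0.80 CPM, and Cdh1 was at 38.1 CPM against 64.2 CPM in CTL 7. Aldh6a1 had the opposite sign with the same markers (r = -0.668 and rho = -0.846, permutation p of 0.0155 and 0.001, 0.0576 and 0.0675 when adjusted), and r was -0.6485 (permutation p = 0.0316) without HFB 1 and HFB 3 and -0.507 (exact permutation p = 0.161) without HFB 5, HFB 6 and CTL 14.

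**Figure D4:**
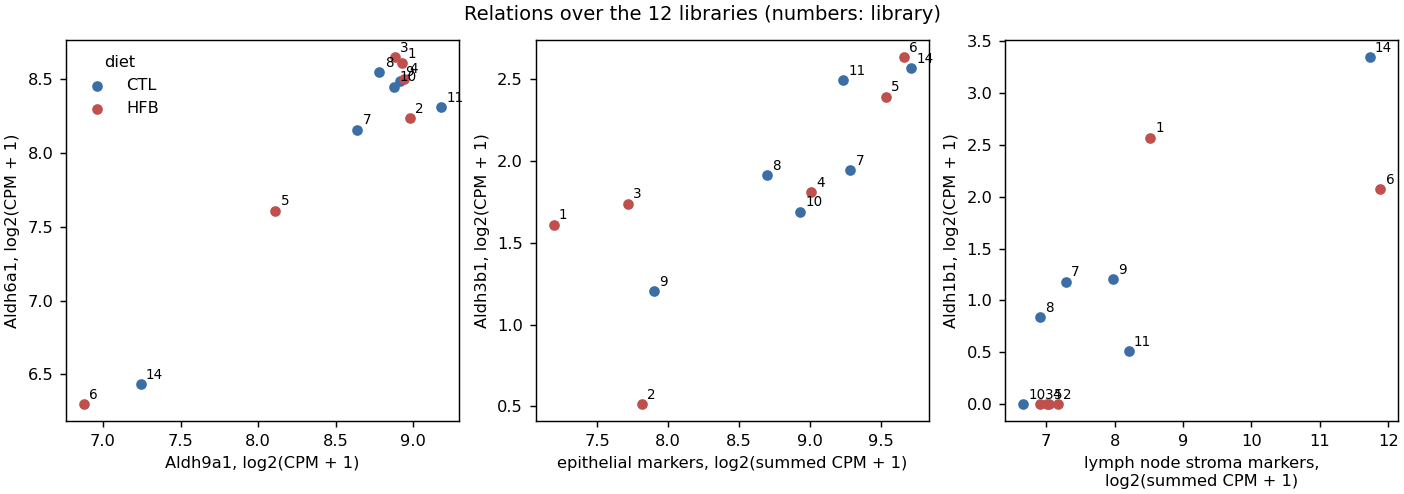
Levels on the log2(CPM + 1) scale in each library, numbered, for Aldh6a1 against Aldh9a1, Aldh3b1 against the summed epithelial markers, and Aldh1b1 against the summed lymph node stroma markers. HFB 6 and CTL 14 lie far from the rest in the first and last panels (r = 0.970 and 0.824 over 12 libraries, and 0.065 for the first without HFB 5, HFB 6 and CTL 14), and the points of the middle panel are spread along its axis (r = 0.768).

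**Figure D5:**
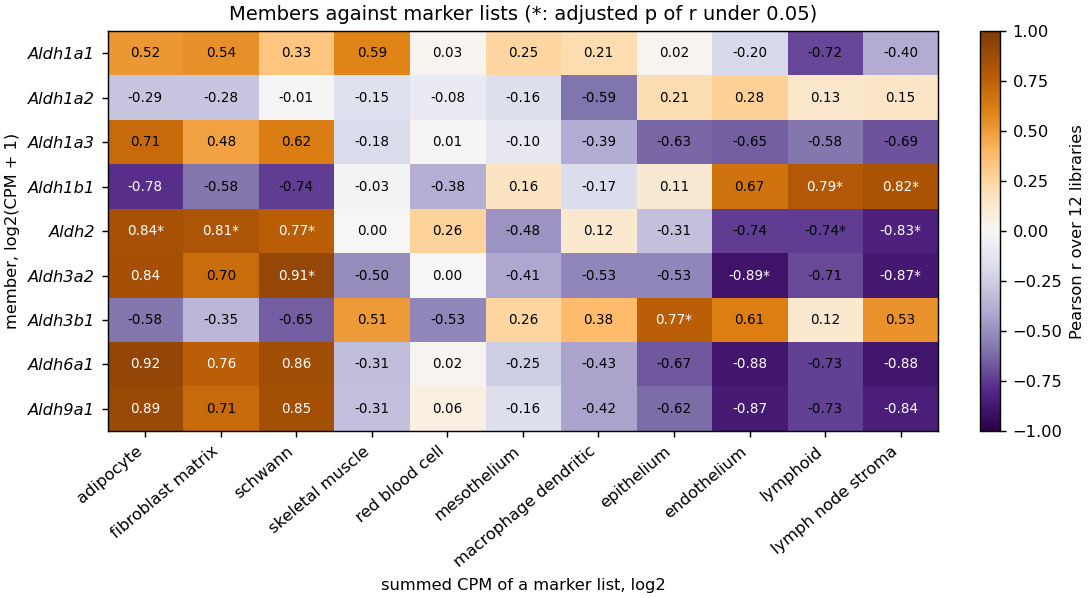
Pearson r over the 12 libraries between each member and the summed level of each of 11 marker lists, all on log2 scales, with an asterisk where the adjusted p of r over 135 relations is under 0.05. Aldh2, Aldh3a2, Aldh6a1 and Aldh9a1 share positive values with adipocyte, fibroblast and Schwann lists and negative values with endothelial and lymphoid lists, opposite to Aldh1b1.

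The genes most like each member tested over the libraries are given as a description, with no test. Those of Aldh1a2 were Afg2b, Zfp64 and Lrat (Pearson r 0.821, 0.811 and 0.781). For Aldh9a1 they were Spsb1, Syap1 and F13a1 (Pearson r 0.993, 0.986 and 0.986), and for Aldh6a1 they were Gphn, Sdha and Vapb (0.987, 0.982 and 0.981). Sdha encodes a subunit of mitochondrial succinate dehydrogenase, and Gphn the molybdenum cofactor enzyme gephyrin. Aldh3a2 was closest to Cd99l2, Tmem209 and Plpp6 (0.995, 0.988 and 0.988), Aldh1a3 to Trim44, Atp2b4 and Pdk4 (0.967, 0.966 and 0.957), and Aldh2 to Slc43a1, Pmm1 and Emx2 (0.958, 0.952 and 0.947). Such likeness was common in these libraries, as 653 of the 9381 other genes tested had an r above 0.9 to Aldh9a1, 569 to Aldh6a1, 559 to Aldh3a2, 100 to Aldh1a3, 43 to Aldh2 and 0 to Aldh1a2. Among them Aldh6a1 ranked 40th for Aldh9a1, and Aldh9a1 ranked 30th for Aldh6a1.

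The 6 other Aldh genes gave no call either. Aldh1l2, Aldh4a1, Aldh16a1 and Aldh18a1 were tested, and their log2 fold changes lay between -0.19 for Aldh1l2 (SE 0.29) and 0.21 for Aldh16a1 (SE 0.25), at an adjusted p of 0.999 throughout (edgeR). The value of Aldh16a1 was -0.055 without HFB 6, and that of Aldh1l2 lay between -0.36 without CTL 14 and -0.037 without CTL 7. Aldh1l2, the mitochondrial formyltetrahydrofolate dehydrogenase, was low in HFB 6 and CTL 14 at 20.05 and 15.1 CPM, like the metabolic members, whereas Aldh16a1 was highest there at 136 and 91.9 CPM. Aldh18a1, which makes a precursor of proline and is not a typical dehydrogenase of the family, varied least of the 4, between 34.3 and 54.5 CPM. Aldh3a1 and Aldh8a1 had 36 and 12 counts in all.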

How the data were processed

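Mammary glands of 12 rat litters, 6 HFB and 6 CTL, were compared at PND21. The authors deposited raw read counts for 16511 genes, 1 column per library and without normalization. The submitters' processing notes name bcl2fastq, CASAVA 1.8, TopHat, DESeq and the rn4 build, with no role or order. The counting program, gene annotation and use of strand are not given in the sources used here. Symbols came from RefSeq (GRCr8 assembly) by Entrez identifier and were found for 16351 of the 16511 genes.

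Counts were normalized by TMM and tested with edgeR 4.0.16 in R 4.3.3 (filterByExpr by diet, quasi-likelihood F test, Benjamini-Hochberg adjustment over the 9382 genes kept, threshold 0.05). Levels are TMM CPM, and log2 levels are log2(CPM + 1). Members below the filter were compared by a two-sided exact permutation test over 924 assignments of 6 libraries against 6. Correlations used 100000 resamples in Python 3.11.15, and the smallest depth treated as detectable was 3 counts. Total counts were 2320267 to 2944680 per library, and 2954 genes had 0 counts in all. The 30 pairs of libraries within a diet differed by more than sampling noise (chi-square per degree of freedom at least 6.69 over genes with 10 or more counts in the pair).

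The test of the diets was repeated with the Wald test of DESeq2 1.42.0, upper-quartile or RLE scaling, and voom of limma 3.58.1 using sample weights. Other fits had no filter or a minimum of 10 counts per library. Further fits left out HFB 6 and CTL 14 together, or each library in turn. Members below the filter were tested again with a pseudocount of 0.5 (two-sided exact permutation p of 0.641 for Aldh1a1, 0.502 for Aldh1b1 and 0.593 for Aldh3b1). Relations were repeated with 2 libraries left out. Leaving out HFB 5, HFB 6 and CTL 14 together, for the fits and for relations (exact permutation test), was added after the data had been seen. Named genes are all members, the other Aldh genes, the gene with the highest mean CPM and the 2 with the smallest unadjusted p of each list, and the 3 genes most correlated with each member tested. The members and lists (retinoid, alcohol and aldehyde, branched-chain and propionate, lysine, carnitine and polyamine, reference and 11 cell type marker lists) were chosen with earlier results of these data known.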

Additional observations from a re-analysis of the deposited data

Results flagged for a closer look

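For the 9 members and 6 other Aldh genes, the distance of the most extreme library of each diet from its neighbour was divided by the spread from lowest to highest of the 6 libraries, on the log2(CPM + 1) scale. Of 30 such groups, 10 had a library past Dixon's critical value, where chance gives about 1 in 20, or 1.5. The same rule over all 9382 genes tested gave 3228 of 18764 groups (17.2%), and 89.2% of the libraries it found were HFB 6 or CTL 14, so such departures of this pair were not particular to the family.

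All 10 were HFB 6 or CTL 14. CTL 14 was far below the other CTL libraries for Aldh1a3 (0.352 CPM, next 3.95), Aldh6a1 (85.6 CPM, next 284.7), Aldh9a1 (150.4 CPM, next 397), Aldh3a2 (61.3 CPM, next 109.5) and Aldh1l2 (15.1 CPM, next 45.1). It was far above them for Aldh1b1 (9.16 CPM, next 1.30) and Aldh16a1 (91.9 CPM, next 64.85). HFB 6 was far below the other HFB libraries for Aldh3a2 (37.7 CPM, next 92.1) and Aldh1l2 (20.05 CPM, next 37.0), and far above them for Aldh3a1 (4.81 CPM, next 1.285). The same libraries had the highest sums of lymphoid and lymph node stroma markers and the lowest sums of adipocyte markers, and the part of these in the values was not tested.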

How the results depend on the processing

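In all 20 alternatives (8 with other processing or libraries left out together, 12 with a library left out) 0 genes had an adjusted p under 0.05, the members among them. Of 40 log2 fold changes checked, 28 kept their sign wherever they could be computed and 12 did not. Aldh1a2 and Aldh1a3 kept theirs in 19 alternatives each and were not tested at a minimum of 10 counts in all libraries. Genes with an unadjusted p under 0.05 numbered 613 with limma-voom, 431 without HFB 6 and CTL 14, 509 without HFB 5, HFB 6 and CTL 14, and 135 (without HFB 5) to 587 (without CTL 14) with a library left out. Genes with groups that did not overlap numbered 76, 131 and 11 (without HFB 5) to 44 (without CTL 14) in the same omissions. Members with an unadjusted p under 0.05 were 1 (Aldh1a3) without HFB 5, HFB 6 and CTL 14, and 0 to 1 (Aldh1a2, without CTL 11) with a library left out.

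With limma-voom the log2 fold change reversed for Aldh3a2 (0.0064), Aldh6a1 (0.051), Aldh9a1 (0.0090), Aldh16a1 (-0.0445), Aldh18a1 (-0.014), Ccl21 (-0.18) and Cxcl13 (0.022). Without HFB 5, HFB 6 and CTL 14 it reversed for Aldh3a2 (0.054), Aldh6a1 (0.11), Aldh9a1 (0.047), Aldh16a1 (-0.058), Aldh18a1 (-0.027), Ccl21 (-0.14), Cxcl13 (0.031) and the endothelial gene Tek (0.0042). Ccl21 was -0.040 with upper-quartile scaling and -0.21 without HFB 6 and CTL 14.

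With a library left out, the ranges that crossed 0 were -0.20 to 0.096 for Aldh3a2, -0.22 to 0.16 for Aldh6a1, -0.27 to 0.087 for Aldh9a1, -0.055 to 0.37 for Aldh16a1, -1.88 to 1.72 for Ccl21, -0.60 to 3.23 for Cd8a, -0.57 to 0.18 for Cxcl13, -0.45 to 2.68 for Lck, -0.038 to 0.22 for Lipe and -0.88 to 0.095 for Prx. Both ends of each of these ranges are the fits without HFB 6 and without CTL 14. The difference of mean log2(CPM + 1) ran from -0.76 (without HFB 1) to 0.027 (without CTL 14) for Aldh1b1 and from -0.36 (without HFB 6) to 0.069 (without HFB 2) for Aldh3b1. The cause of these reversals was not tested.

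Of 17 relations with an adjusted p of r under 0.05, 11 had a p of 0.05 or more without 2 libraries. Of the 6 between members, 0 had an exact permutation p under 0.05 without HFB 5, HFB 6 and CTL 14, and that of Aldh3a2 to Aldh6a1 reversed (r = -0.022). No paired analysis was possible because no HFB gland has a CTL counterpart in the labels. Member levels per kilobase, and their version by total count, were not run, since no transcript or protein lengths were at hand. Depth limits Aldh1a1, Aldh1b1 and Aldh3b1, with 61, 56 and 93 counts over the 12 libraries. It also limits Aldh1a2 and Aldh1a3, which passed the filter with 139 and 157 counts.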

Other observations

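The cell type markers were also compared between the diets, and no gene of the 11 lists had an adjusted p under 0.05 in edgeR's test. The signs and medians are those of edgeR with TMM scaling unless another fit is named. The epithelial markers tested were all lower in HFB by sign, 14 of 14, with a median log2 fold change of -0.31. With DESeq2, 13 of 14 were below 0. The count was 8 of 14 without CTL 14 (median -0.12) and 10 of 14 without HFB 1 (median -0.091). Krt8, the gene of the list with the highest CPM, had -0.012 (standard error 0.46). Epcam and Cdh1, which hold epithelial cells together, had the smallest unadjusted p of the list. Their values were -0.63 (standard error 0.39) and -0.63 (standard error 0.39). With limma-voom they were -1.12 and -1.07, and without HFB 5, HFB 6 and CTL 14 they were -0.99 and -0.98. The median of the epithelial list was -0.81 with limma-voom and -0.54 without HFB 6, with 14 of 14 below 0 in each. Without HFB 5, HFB 6 and CTL 14 it was -0.65, with 15 of 15 below 0. The 7 Schwann cell markers were below 0 as well, with a median of -0.36, but 4 of 7 were with limma-voom (median -0.0016) and 5 of 7 without HFB 6 and CTL 14 (median -0.13). Of the fibroblast and matrix genes 11 of 12 were below 0 (median -0.14), and 7 of 12 without CTL 9 (median -0.071). All 10 skeletal muscle genes tested and all 8 red blood cell genes were above 0, with medians of 0.47 and 0.89, and their sums varied between libraries from 205 to 8387 CPM and from 11250 to 112300 CPM. Without HFB 6 and CTL 14, 3 of the 10 muscle genes were above 0 (median -0.030), and the 8 red blood cell genes remained above it (median 0.90). The red blood cell list had 7 of 8 above 0 without HFB 2 (median 0.29) and a median of 1.53 without CTL 9. Single libraries moved these values, as the muscle gene Ckm was 0.91 in all libraries and 0.20 without HFB 6, and the globin gene Hba-a2 was 1.00 in all, 0.53 without HFB 2 and 1.73 without CTL 9. The adipocyte list was even in all libraries, with 5 above and 5 below 0 (median -0.024). This balance rested on the libraries included, with 0 of 10 above 0 without CTL 14 (median -0.19) and 8 of 10 without HFB 6 (median 0.10).

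Of the macrophage and dendritic cell genes, 6 of the 8 tested were above 0, with a median of 0.18. The median was 0.034 without HFB 5, HFB 6 and CTL 14 (5 of 8) and 0.075 with limma-voom (7 of 8). Without CTL 11 it was 0.30 (9 of 9). C1qb and C1qc encode chains of complement C1q made by tissue macrophages. Both had an unadjusted p under 0.05 in edgeR's test, as did 2.34% of all genes tested. Their log2 fold changes were 0.59 (standard error 0.20) and 0.36 (standard error 0.16). Without HFB 5, HFB 6 and CTL 14 these were 0.22 and 0.12, and C1qc was 0.24 without HFB 5 alone. The sum of this list was highest in HFB 6 and HFB 5, at 1270 and 1252 CPM. Of the lymphoid genes 5 of 6 tested were above 0 (median 0.35), but this rested on the libraries included, with 0 of 6 above 0 without HFB 6 (median -0.77), 6 of 6 without CTL 14 (median 3.03) and 4 of the 4 still tested without both. Lck was 0.44 in all libraries and -0.45, 2.68 and 1.77 in these fits. Of the lymph node stroma genes 1 of 2 were above 0 (median -0.16), of the endothelial genes 3 of 7 (median -0.13) and of the reference genes 5 of 8 (median 0.12). Without HFB 6 the lymph node stroma and endothelial lists had 0 of 2 (median -1.22) and 0 of 7 above 0 (median -0.39). Without CTL 14 these lists had 2 of 2 (median 0.95) and 5 of 7 above 0 (median 0.22). The mesothelial list had 3 of 6 genes in the table and none passed the filter, with Msln at most at 8.01 CPM.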
